A study of Mus musculus with 111 samples.

Results

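The gastrocnemius muscles of mice in a tendon-laceration (tenotomy) experiment were compared between their left and right legs 14 days after surgery. By the sample titles there were 5 left legs, labelled as tenotomy, and 5 right legs, labelled as the control legs of the same experiment, giving 10 of the 111 arrays of the series. Animal numbers in the labels matched both legs of 4 animals, and 1 further left leg and 1 further right leg came from animals with a single array. The study's design text states that the right Achilles tendon was cut and that left legs served as controls, whereas the sample labels give the tenotomy to the left legs. The surgical status of each leg was therefore not settled, and every difference is given by leg side as left minus right, so that a negative value means a lower signal in left legs.

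All mice were male C57BL/6, and those of the tenotomy experiment were 8 weeks old at surgery, which was done under ether and ketamine-xylazine. The sham and naive mice were also 8 weeks old at the start. Both legs of the day 14 tenotomy animals were thus exposed to the same anesthesia, recovery and free cage activity. The left legs (5 arrays, labelled tenotomy) and right legs (5 arrays, labelled control) were set beside 8 sham legs at day 14, in which the Achilles tendon was isolated and handled but not cut, and 7 naive legs without any treatment. All sham and naive arrays came from right legs of separate animals. The tenotomy animals sampled at day 2 (5 left and 5 right legs) and day 7 (7 left and 7 right legs) served for the comparison over time. Mice in which a hindlimb was immobilized by a cast and sham animals of days 2 and 7 form the rest of the series. They entered no comparison directly. Their arrays took part in the shared estimate of spread, the value added before taking logs, the filter on low signal and the choice of probe set per gene.

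The gastrocnemius is a calf muscle that inserts on the heel through the Achilles tendon, and cutting that tendon removes its load. Tendon and muscle repair is known to proceed through entry of neutrophils and macrophages, growth of fibroblasts and tendon cells, deposition of collagen-rich matrix and remodelling of that matrix by metalloproteinases. Loss of load is known to lower the size of muscle fibres, and the ubiquitin ligases Fbxo32 (atrogin-1) and Trim63 (MuRF1) are textbook genes of that process.

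Signals are MAS5 values, linear intensities that the authors had scaled array by array, and they were compared as log2(signal + 3.98). Levels are never set against each other between probe sets. Median signal per array was 20.0 to 22.8 in left legs and 21.8 to 24.1 in right legs, and the 10 arrays correlated at 0.935 to 0.967 over genes. The log2 ratio of the 3′ to the 5′ probe set of beta-actin, a measure of RNA integrity, averaged -0.581 ± 0.186 in left legs and 0.0821 ± 0.353 in right legs (SD, n = 5 each). It was lower in the left leg of each of the 4 pairs (pair differences from -1.21 to -0.0869). The group means differed by -0.663 (two-sided exact permutation test over 252 splits of the 10 arrays, p = 0.0159, smallest possible 0.00794). That test did not use the pairing of legs by animal. The same ratio of Gapdh differed by -0.0449 (exact permutation p = 0.254). In sham legs the actin ratio ran from -1.53 to -0.834, below all 10 values. The part of RNA integrity in the gene differences was not tested. One array, right leg replicate 3, held the highest right leg signal of Mmp13, Col3a1, Col5a2, Col11a1, Tnc and Lox, and results are given with and without it where it matters.

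Of 16028 genes tested with limma, 1556 were higher (9.71%) and 2162 lower (13.5%) in left legs at an adjusted p under 0.05. Without right leg replicate 3 these counts were 1124 and 1717. The lower genes differed more: their median absolute log2 difference was 0.685, with 545 genes beyond 1, against 0.413 and 78 genes among the higher ones. The median of all genes was -0.0178. The 5 left and 5 right signals did not overlap for 1010 genes with left legs higher (6.3% of those tested) and for 1351 with left legs lower (8.43%). Where a gene below passed the test, its direction was the same in 4 of 4 pairs unless a count is given. Counts of list members between the legs are to be read beside the shares over all genes, 9.71% higher and 13.5% lower.

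**Figure D1:**
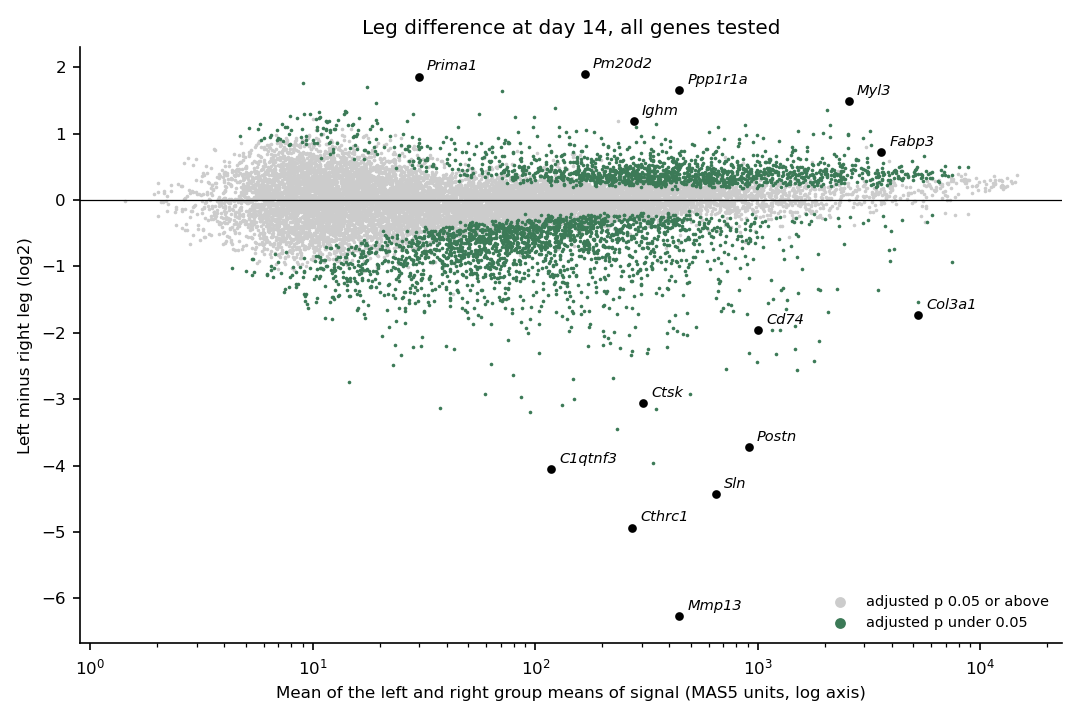
Each point is 1 of 16028 genes, with its mean signal over left and right legs (log axis) on the x axis and the log2 difference of left minus right legs at day 14 on the y axis, and green points had an adjusted p under 0.05. Black points are named genes, all past that threshold. The differences reach -6.27 (Mmp13) below 0 and 1.89 (Pm20d2) above it.

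Most of the listed collagen and matrix assembly genes were lower in left legs. Of the 20 genes of the collagen list, 19 were lower and none higher, with a median log2 difference of -1.67. The remaining member was Col22a1, a collagen of tissue junctions, whose difference missed the test (log2 difference -0.29). Col9a1, a collagen gene counted with the cartilage and bone genes below, was higher in left legs (log2 difference 0.76). Both of its 2 probe sets had this direction and 1 was called. Its direction by pair is not given. Of 31 matricellular and matrix assembly genes, 28 were lower and none higher (median -1.44). Without right leg replicate 3 the counts were 19 of 20 and 27 of 31. The summed signal of the collagens ran from 10880 to 18590 in left legs, from 35610 to 47540 in right legs, from 14480 to 20690 in sham legs and from 15750 to 22630 in naive legs. Left legs thus overlapped the sham and naive range, and right legs lay above all of them. In bulk muscle, fewer cells of a type and less RNA per cell cannot be told apart.

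Col3a1, a fibrillar collagen abundant in early repair tissue, had signals of 2634, 1721, 2577, 2479 and 2774 in left legs, against 7656, 7446, 9303, 7838 and 7815 in right legs, and 3236 to 4346 in sham legs. The groups did not overlap, and all left legs lay below the lowest sham leg (log2 difference -1.73, SE 0.21, adjusted p = 1.27e-10). Col1a1, the main collagen of tendon and scar, was 3511, 2684, 4275, 3477 and 837 in left legs and 7940, 6531, 8134, 7987 and 6897 in right legs (log2 difference -1.53, SE 0.33, adjusted p = 0.000188). Left leg replicate 5 stood lowest by a wide margin, yet every left leg was below every right leg. Col5a2 and Col11a1, which help set the diameter of collagen fibrils, differed by -2.44 and -2.69. Col12a1, which lies on fibril surfaces, and Col8a1, a short-chain collagen, differed by -2.15 and -2.20. The adjusted p was 6.48e-11 or less for Col5a2 and Col11a1 and 2.5e-08 for Col8a1.

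Postn (periostin), a matrix protein of healing tissue, had signals of 119.8, 100, 123, 91.6 and 122 in left legs, against 1555, 978, 3550, 1388 and 1062 in right legs (log2 difference -3.73, SE 0.43, adjusted p = 1.28e-11). Sham legs ran from 102 to 256, so left legs fell within or just under that range and right legs far above it. Cthrc1, a secreted protein of activated fibroblasts, was 22.0, 9.13, 12.9, 22.9 and 1.15 in left legs and 301, 301, 1205, 501 and 354 in right legs (log2 difference -4.94, SE 0.49, adjusted p = 3.84e-14). Left leg replicates 2, 3 and 5 were under the 40th percentile of their arrays. The size therefore rests in part on the value added before taking logs. Fn1 (fibronectin), a scaffold on which other matrix proteins assemble, averaged 524 ± 72.5 in left legs and 3061 ± 1609 in right legs (SD, n = 5 each; log2 difference -2.42, SE 0.22, adjusted p = 6.58e-16). Tnc (tenascin C) and Lox, the enzyme that starts collagen cross-linking, differed by -2.23 and -2.24. Lum (lumican), a small proteoglycan that binds collagen fibrils, differed by -2.31. Mfap4, a protein of elastic fibres, differed by -3.96, and Fbln7, a fibulin, by -3.45 (adjusted p = 1.9e-21).

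Other genes were among the 15 with the largest difference towards right legs. C1qtnf3, a secreted C1q-related protein, was 1.87 to 28.3 in left legs and 123 to 469 in right legs (log2 difference -4.05, SE 0.50, adjusted p = 1.85e-10). Sfrp2, a secreted modulator of Wnt signalling, differed by -3.09, and Cdh11, a cadherin of mesenchymal cells, by -2.96. Matn4 (matrilin 4), a matrix adaptor protein, was 35.1, 28.0, 41.7, 44.3 and 9.18 in left legs and 169, 208, 377, 349 and 235 in right legs (log2 difference -3.001, SE 0.32, adjusted p = 8.12e-13). Sh3pxd2b, an adaptor of the cell protrusions that degrade matrix, differed by -2.93.

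Most markers of tendon cells and fibroblasts were lower in left legs too. These lists are not separate from the matrix genes above: Col11a1 is among the tenocyte markers and Lum among the fibroblast markers. Of 13 tenocyte markers 10 were lower and none higher in left legs (median -1.68). Their summed signal was 2006 to 5895 in left legs, 9571 to 16920 in right legs and 3681 to 4635 in sham legs, and no marker lay under the 40th percentile of every left array. Tnmd (tenomodulin), a membrane protein of tendon cells, was 216, 312, 208, 195 and 84.5 in left legs, against 902, 1093, 2086, 1516 and 564 in right legs and 379 to 615 in sham legs. Left legs lay below the sham range and right legs reached well above it (log2 difference -2.54, SE 0.34, adjusted p = 3.17e-09). Comp, a cartilage and tendon matrix protein, differed by -1.97, Kera (keratocan) by -2.22, and Egr1, an immediate early factor also used in tendon, by -2.31. Of 19 markers of fibroblasts and fibro-adipogenic progenitors 12 were lower and none higher (median -0.88). Their summed signal was 13050 to 19140 in left legs, 19840 to 27690 in right legs and 16390 to 18560 in sham legs. Fap, a surface protease of activated fibroblasts, differed by -1.62, Pi16 by -1.50 and Mfap5 by -1.26. The part of tissue composition in the matrix differences was not tested.

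**Figure D2:**
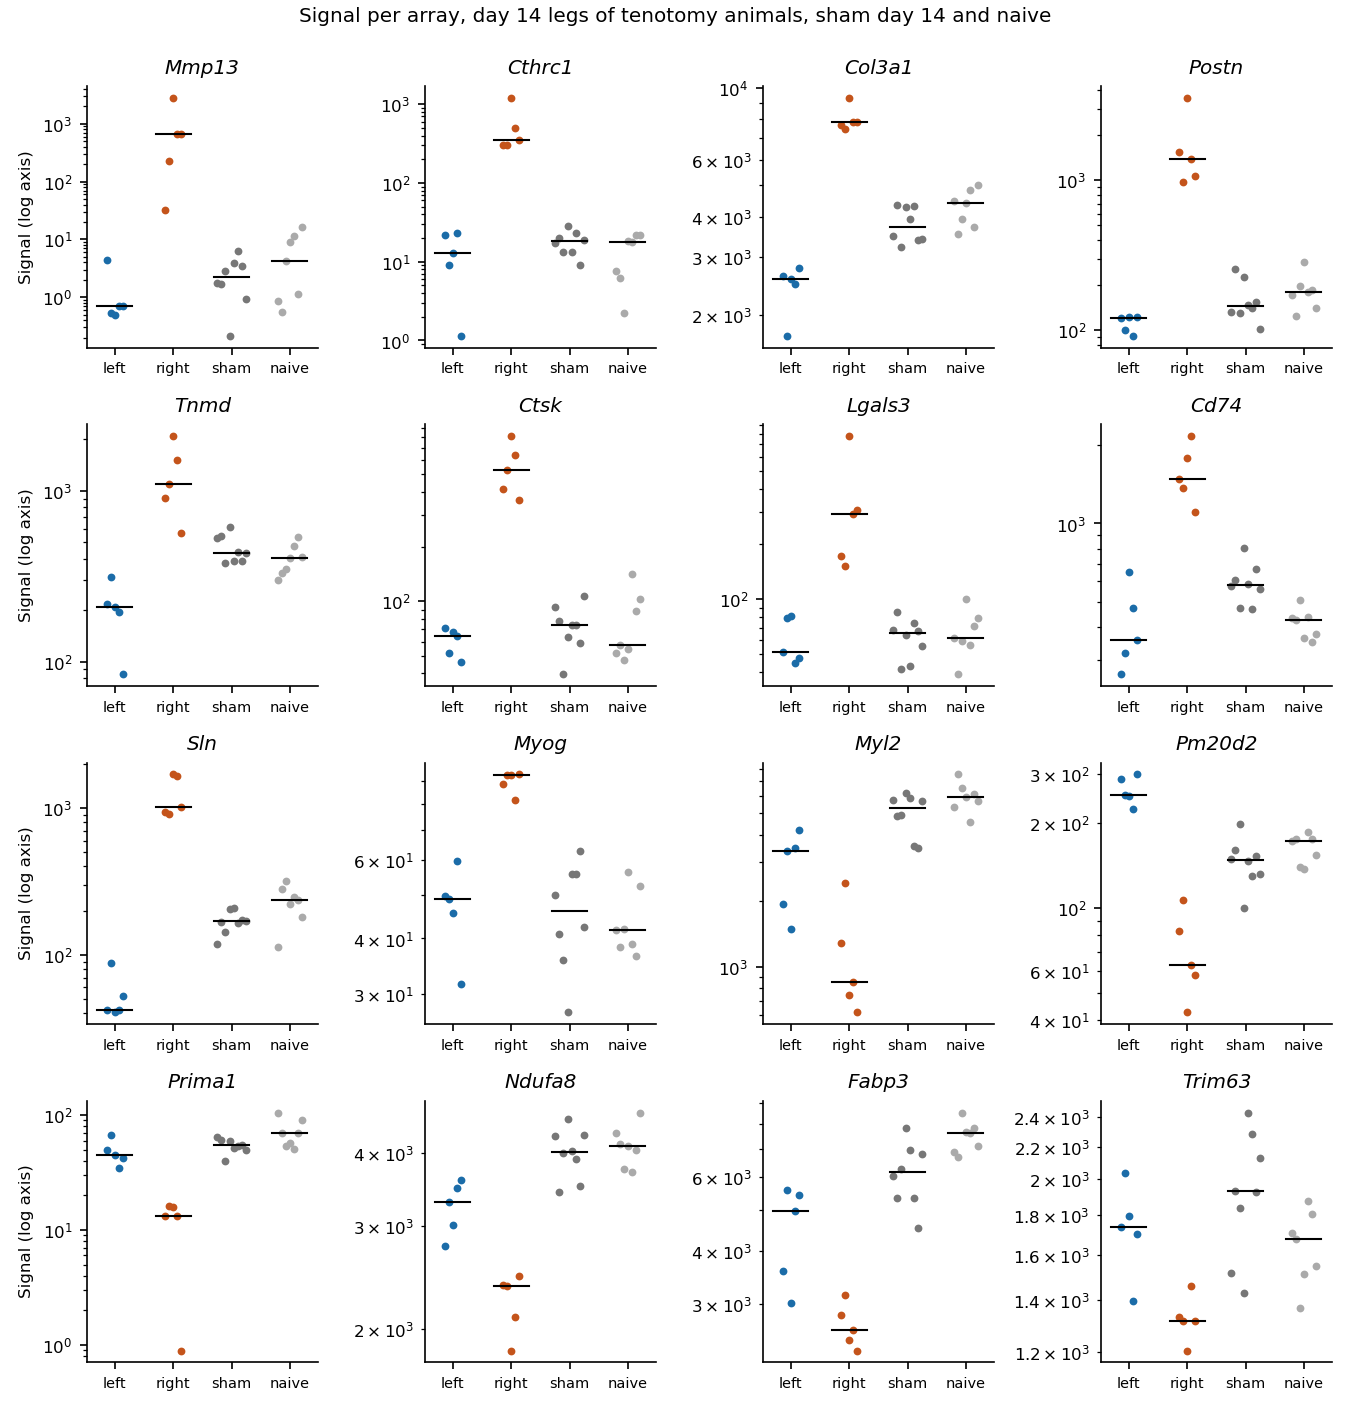
Points are the signals of single arrays on log axes for 16 genes, in left legs (5), right legs (5), sham legs at day 14 (8) and naive legs (7), and bars are medians. For Col3a1, Postn, Cthrc1, Ctsk and Sln every right leg lies above every other array, whereas for Pm20d2 every left leg lies above every other array.

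Of 26 extracellular proteases and inhibitors 16 were lower and 1 was higher in left legs (median -0.88), and 11 were lower without right leg replicate 3. Mmp13, a collagenase, showed the largest difference of any gene tested. Its signals were 4.40, 0.535, 0.501, 0.714 and 0.701 in left legs, against 32.9, 228, 2812, 680.3 and 657 in right legs (log2 difference -6.27, SE 0.60, adjusted p = 6.35e-15). The right legs spread widely and none overlapped the left legs. All left leg signals were below the 40th percentile of their arrays, so the size of the difference rests on the value added before taking logs: it was -7.57 with 1 and -4.64 with 16 added. Mmp14, a membrane collagenase and activator of other metalloproteinases, was 73.2 to 115 in left legs and 450 to 1922 in right legs (log2 difference -2.93, SE 0.23, adjusted p = 6.28e-19). Timp1, an inhibitor of metalloproteinases, was 10.5, 15.5, 25.7, 11.4 and 2.23 in left legs and 66.1, 60.4, 449.5, 127 and 181 in right legs (log2 difference -3.19, SE 0.45, adjusted p = 1.53e-08). Serpina3n, a secreted serine protease inhibitor, differed by -3.14. Its left leg signals were also all under the 40th percentile, so that this size rests on the added value too. The 1 member higher in left legs was Timp4, an inhibitor expressed in muscle and heart (log2 difference 1.05, SE 0.26, adjusted p = 0.00106).

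The promoter windows of Mmp13, Timp1 and Fos are shown because these genes were among the 15 lowest in left legs and Fos is a subunit of the AP-1 transcription factor. Each runs from 250 bases before to 50 bases after the gene's start in RefSeq (GRCm38.p6, plus strand), 5′ to 3′. Capitals mark matches on either strand to the AP-1 motif TGANTCA.
Mmp13, chr9:7272264-7272563: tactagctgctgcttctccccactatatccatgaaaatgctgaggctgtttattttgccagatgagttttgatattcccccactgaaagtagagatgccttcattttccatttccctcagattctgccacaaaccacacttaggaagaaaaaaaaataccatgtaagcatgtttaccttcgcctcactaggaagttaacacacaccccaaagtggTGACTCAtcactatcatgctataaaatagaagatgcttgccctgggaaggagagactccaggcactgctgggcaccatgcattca
Timp1, chrX:20869916-20870215: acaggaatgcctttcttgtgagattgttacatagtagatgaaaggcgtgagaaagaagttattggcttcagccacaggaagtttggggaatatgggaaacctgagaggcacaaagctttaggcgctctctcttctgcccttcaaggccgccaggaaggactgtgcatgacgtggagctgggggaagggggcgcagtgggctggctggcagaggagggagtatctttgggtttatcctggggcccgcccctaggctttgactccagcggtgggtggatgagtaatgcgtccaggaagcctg
Fos, chr12:85473640-85473939: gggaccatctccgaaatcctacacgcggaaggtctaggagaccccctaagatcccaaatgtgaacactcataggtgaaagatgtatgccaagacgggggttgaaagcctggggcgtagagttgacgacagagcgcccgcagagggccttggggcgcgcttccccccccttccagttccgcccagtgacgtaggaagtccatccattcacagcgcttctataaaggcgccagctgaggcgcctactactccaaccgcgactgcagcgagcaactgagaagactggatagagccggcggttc
The Mmp13 window held 1 match and the other two held none of these letters. Over 32817 distinct promoter windows, with 1 chromosome left out, 7.81% held the motif. Of the 15 genes lowest in left legs 11 had a window among these and 1, Mmp13, held the motif. Among the 15 highest it was 1 of 9 with such a window. A match is a description of the sequence, and no binding was measured.

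Fos itself, an immediate early gene, had signals of 64.4, 75.6, 55.1, 43.4 and 39.0 in left legs, against 716, 1135, 640.2, 606 and 112 in right legs (log2 difference -3.15, SE 0.41, adjusted p = 1.2e-09). Right leg replicate 5 was far lower than the other right legs and still above all left legs. Runx1, a transcription factor of blood cells that muscle also makes after denervation, was 8.10 to 25.1 in left legs and 28.2 to 172 in right legs (log2 difference -1.59, SE 0.33, adjusted p = 8.54e-05).

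Most markers of macrophages and monocytes were lower in left legs. Of 25 macrophage and monocyte markers 20 were lower and none higher (median -1.06), and 19 were lower without right leg replicate 3. Their summed signal was 1408 to 2107 in left legs, 3429 to 5975 in right legs, 1912 to 2932 in sham legs and 1888 to 2499 in naive legs. No marker was under the 40th percentile on every left array, and Trem2 and Msr1 were under it on every right array. Lgals3 (galectin 3) was 51.3, 79.1, 81.5, 45.1 and 47.6 in left legs and 172, 152, 778, 294 and 307 in right legs (log2 difference -2.19, SE 0.32, adjusted p = 4.1e-08). Gpnmb, a glycoprotein of phagocytes, was 38.8, 54.1, 38.7, 29.5 and 18.1 in left legs and 115, 159.7, 152, 202 and 103 in right legs (log2 difference -1.94, SE 0.24, adjusted p = 2.26e-10). Both left leg ranges lay within those of sham legs, except for 1 left leg below the sham range for Gpnmb. Mpeg1, a pore-forming protein of macrophages, differed by -2.11, Ms4a7 by -1.63 and the lysosomal glycoprotein Cd68 by -1.02.

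Of 14 complement genes 10 were lower and none higher in left legs (median -0.91). C1qa and C1qb, subunits of the first complement component made by macrophages, differed by -1.59 and -1.46. C1qa was 96.6, 106, 120.4, 124 and 53.3 in left legs, 257, 272, 433, 369 and 205 in right legs and 148 to 247 in sham legs. Every left leg was below the lowest sham leg. C1s1, a protease of the same component, differed by -1.28. Of 16 genes of the immunoproteasome and antigen presentation 9 were lower and none higher (median -0.48). Cd74, the invariant chain that guides class II molecules, was 264, 317, 651, 474 and 357 in left legs and 1482, 1367, 1781, 2165 and 1110 in right legs (log2 difference -1.96, SE 0.24, adjusted p = 2.51e-10). The class II chains H2-Aa and H2-Eb1 differed by -1.71 and -1.83. Of 30 chemokine and cytokine genes 10 were lower and none higher, among them the monocyte attractant Ccl8 (-2.31, adjusted p = 2.31e-05) and the monocyte receptor Ccr2 (-1.73, adjusted p = 8.28e-06). Of 21 interferon response genes 6 were lower and none higher (median -0.34).

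In other blood cell lists few members passed. Of 9 neutrophil markers limma called 0, and 1 had an unadjusted p under 0.05. Under the 40th percentile on every array of a leg were 1 of the 9 in left legs and 4 in right legs. A difference in such markers could be missed. Of 12 lymphocyte markers 1 was higher and 1 lower (median -0.11). Under the 40th percentile on every array of a leg were 3 of the 12 in left legs and 6 in right legs. The lower marker was Nkg7 (log2 difference -1.10), which was under it on every left array. Its direction by pair is not given, and the alternatives gave 0 to 1 lower. Ighm, the heavy chain of immunoglobulin M, was 456, 343, 517, 226 and 402 in left legs and 176, 190.1, 158, 139.5 and 160.3 in right legs (log2 difference 1.18, SE 0.30, adjusted p = 0.00126), without overlap. It had 10 probe sets, 3 of them with this direction, and their mean gave -0.019 (adjusted p = 0.969). Cd27, a receptor of lymphocytes outside that list, was 20.2 to 36.1 in left legs and 1.45 to 13.0 in right legs (log2 difference 1.71, SE 0.35, adjusted p = 9.35e-05). All its right leg signals were under the 40th percentile of their arrays, so the size rests on the added value. Of 9 mast cell markers 1 was lower, the mast cell protease Cpa3 (-0.58, adjusted p = 0.0452), whose call was lost in 14 of 21 alternatives. Under the 40th percentile on every array were 3 of the 9 in left legs and the same 3 in right legs.

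Of 27 cathepsin and lysosome genes 17 were lower and 1 was higher in left legs (median -0.46). Ctsk (cathepsin K), a protease able to cut collagen, was 71.7, 51.6, 67.8, 64.2 and 46.2 in left legs and 413, 528, 813, 643 and 359.6 in right legs (log2 difference -3.06, SE 0.26, adjusted p = 7.62e-17). Left legs lay within the sham range of 39.7 to 107. Ctss, a cathepsin of antigen-presenting cells, differed by -1.34 and the lysosomal protease Lgmn (legumain) by -1.28. The member that was higher was Ctsd (cathepsin D), a widely expressed lysosomal protease (log2 difference 0.38, SE 0.10, adjusted p = 0.0027); the adjusted p was 0.0991 after quantile normalization. Ctsl (cathepsin L), known to rise in muscle wasting, did not pass the test (-0.093, adjusted p = 0.624).

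**Figure D3:**
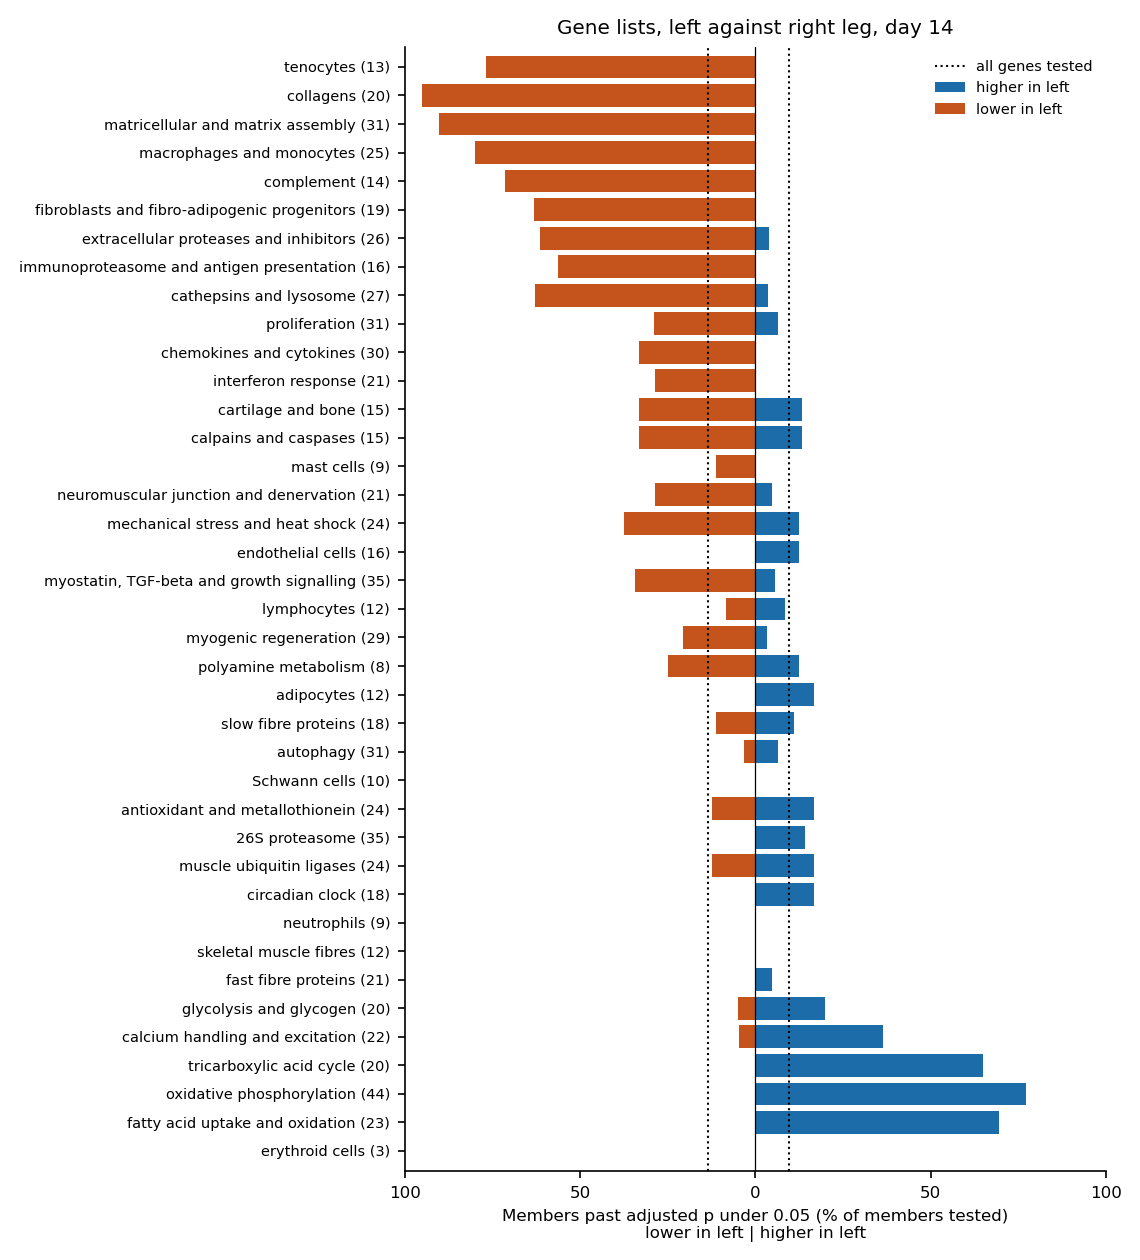
Bars give, for each of 39 gene lists with the number of members tested in brackets, the percentage of members higher (blue, to the right) or lower (orange, to the left) in left legs at an adjusted p under 0.05. Dotted lines mark the shares over all genes, 9.71% higher and 13.5% lower, and the lists are ordered by median difference.

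The defining markers of skeletal muscle were present in both legs. Of 12 skeletal muscle fibre markers limma called 0 and 1 had an unadjusted p under 0.05 (median 0.21). Their summed signal was 143300 to 181200 in left legs, 112800 to 146800 in right legs and 103500 to 203300 in sham legs. Myosin heavy chain genes did not pass it either. The differences were 0.21 for Myh4 and 0.15 for Myh1, the fast IIB and IIX chains, 0.31 for Myh2, the fast IIA chain, and 0.24 for the slow chain Myh7. The embryonic and perinatal chains Myh3 and Myh8 differed by -0.50 and -0.76 (adjusted p = 0.439 and 0.157), and Myh8 passed with only the 10 arrays in the fit (adjusted p = 0.0409). Of 21 fast fibre proteins 1 was higher and none lower, and the alternatives gave 0 to 7 higher, with 7 when only the 10 arrays were fitted.

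Sln (sarcolipin), a small inhibitor of the calcium pump of the sarcoplasmic reticulum, had the third largest absolute difference of all genes tested. That rank holds for the added value of 3.98, on which the sizes of Mmp13 and Cthrc1 above it depend. Its signals were 42.3, 87.7, 40.7, 42.3 and 52.6 in left legs, against 942, 908, 1695, 1658 and 1009 in right legs, 119.5 to 209.6 in sham legs and 114 to 319.9 in naive legs (log2 difference -4.43, SE 0.39, adjusted p = 1.41e-16). Left legs lay below all sham and naive legs, and right legs above all of them. Against sham legs the log2 difference was -1.63, adjusted p = 0.00035 for left legs and 2.80, adjusted p = 3.21e-10 for right legs. Of 22 calcium handling genes 8 were higher and 1, Sln itself, lower in left legs (median 0.28). Jph2 (junctophilin 2), which ties the surface membrane to the sarcoplasmic reticulum, was 2961 to 3774 in left legs and 1759 to 2339 in right legs (log2 difference 0.61, SE 0.13, adjusted p = 0.000115). Cacna1s, the voltage sensor of excitation-contraction coupling, differed by 0.54.

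The slow fibre list split, with 2 of 18 members higher and 2, Csrp3 and Sln, lower. Myl2 and Myl3, the regulatory and essential light chains of slow myosin, were the higher ones, each in 3 of 4 pairs. Myl2 was 1934, 3369, 1491, 3491 and 4208 in left legs, against 1281, 2396, 744, 854 and 619.7 in right legs and 3490 to 6204 in sham legs (log2 difference 1.36, SE 0.26, adjusted p = 2.25e-05). Both legs overlapped, and right legs lay below every sham leg. Myl3 was 1995 to 5346 in left legs and 611 to 3077 in right legs (log2 difference 1.49, SE 0.27, adjusted p = 1.15e-05). Csrp3 (muscle LIM protein), a stretch sensor of the Z-disc, was 818, 1964, 716, 908 and 2081 in left legs and 3432, 5856, 2307, 2764 and 1800 in right legs (log2 difference -1.34, SE 0.43, adjusted p = 0.0155). It was lower in left legs in 3 of 4 pairs, and its call was lost with the animal as a fixed effect and without left leg replicates 1 or 3 or right leg replicate 2. The stretch-responsive genes Ankrd1 and Ankrd2 and the cardiac actin gene Actc1 did not pass (-0.34, -0.55 and 0.79), although Actc1 did with only the 10 arrays in the fit (adjusted p = 0.0135).

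Of 21 genes of the neuromuscular junction and of denervation 1 was higher and 6 were lower in left legs (median -0.22). Myog (myogenin), a myogenic factor raised by denervation and in regeneration, was 49.7, 48.9, 45.6, 59.7 and 31.6 in left legs and 88.8, 92.9, 93.0, 81.5 and 93.2 in right legs (log2 difference -0.91, SE 0.20, adjusted p = 0.000156). Sham legs ran from 27.4 to 62.8, so left legs lay within the sham range and right legs above it. Chrnb1, a subunit of the acetylcholine receptor, differed by -0.60, and the agrin receptor Lrp4 by -0.62 in 3 of 4 pairs. The gene that was higher was Dach2, a repressor of myogenin (0.78, adjusted p = 0.00345, 3 of 4 pairs). The receptor subunit Chrna1, Hdac4 and Gadd45a did not pass (-0.29, -0.055 and 0.51). Gadd45a passed after quantile normalization and with only the 10 arrays in the fit (adjusted p = 0.0322 and 0.00894). Of 29 myogenic regeneration genes 1 was higher and 6 lower, with the imprinted gene Mest at 20.6 to 57.04 in left legs and 112 to 153 in right legs (log2 difference -1.84, SE 0.34, adjusted p = 1.1e-05).

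Neither of the ligases used as markers of atrophy passed the test. Fbxo32 was 1251, 917, 1096, 1049 and 1118 in left legs, against 704, 605, 849, 937 and 1404 in right legs and 611 to 1329 in sham legs (log2 difference 0.33, SE 0.27, adjusted p = 0.418). Trim63 was 1738, 2037, 1796, 1396 and 1701 in left legs and 1332, 1316, 1206, 1461 and 1317 in right legs (log2 difference 0.39, SE 0.17, adjusted p = 0.0991). Trim63 was higher in the left leg of 4 of 4 pairs, and its adjusted p was 0.0127 or less with the animal as a fixed effect and with only the 10 arrays in the fit. Of 24 muscle ubiquitin ligases 4 were higher and 3 lower in left legs (median 0.14). Over all genes tested 9.71% were higher and 13.5% lower, so these counts do not set the list apart. Asb2, a ligase subunit that limits muscle mass, averaged 3757 ± 142 in left legs and 2439 ± 381 in right legs (SD, n = 5 each; log2 difference 0.63, SE 0.16, adjusted p = 0.00144). Trim54 (MuRF3), a relative of Trim63, differed by 0.62. On the other side, Klhl40, a partner of thin filament proteins, was 1010, 1239, 978, 1116 and 1030 in left legs and 1749, 1539, 1857, 1798 and 1775 in right legs (log2 difference -0.70, SE 0.13, adjusted p = 1.91e-05). Cblb, a ligase that targets insulin receptor substrate 1, differed by -0.46, and Klhl41 by -0.24 with an adjusted p of 0.0427, a call lost in 11 of 21 alternatives. Of 35 subunits and regulators of the 26S proteasome 5 were higher and none lower (median 0.12). Psmd8 and Psmb2 differed by 0.62 and 0.47, whereas the ubiquitin receptor subunit Psmd4 did not pass (-0.064). Of 31 autophagy genes 2 were higher and 1 lower, and of 15 calpain and caspase genes 2 were higher and 5 lower.

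Genes of oxidative metabolism were higher in left legs. Of 44 oxidative phosphorylation genes 34 were higher and none lower (median 0.39). Without right leg replicate 3 there were 23. Their summed signal was 238800 to 283200 in left legs, 173600 to 217400 in right legs and 218300 to 336400 in sham legs. Ndufa8, a subunit of complex I, was 2776, 3301, 3014, 3480 and 3598 in left legs, against 2379, 2372, 1840, 2100 and 2467 in right legs and 3435 to 4575 in sham legs (log2 difference 0.53, SE 0.091, adjusted p = 2.49e-06). Atp5g1, a subunit of the ATP synthase ring, averaged 6875 ± 665 in left legs and 4333 ± 566 in right legs (SD, n = 5 each; log2 difference 0.66, SE 0.14, adjusted p = 0.000114). Cycs (cytochrome c) differed by 0.52. Of 20 genes of the tricarboxylic acid cycle 13 were higher and none lower (median 0.33), among them Fh1 (fumarate hydratase, 0.52) and Idh2 (0.62). The call of Idh2 was lost with the mean of its probe sets and without right leg replicate 2.

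Of 23 genes of fatty acid uptake and oxidation 16 were higher and none lower (median 0.42). Fabp3, a fatty acid carrier, was 3582, 5577, 3015, 4987 and 5438 in left legs, against 2825, 3138, 2454, 2591 and 2320 in right legs and 4528 to 7844 in sham legs (log2 difference 0.72, SE 0.15, adjusted p = 0.000136). The legs overlapped and right legs lay below every sham leg. The fatty acid transporter Cd36 differed by 0.50 in 3 of 4 pairs, the auxiliary enzyme Eci1 by 0.68 and the dehydrogenase Acadl by 0.56. Ppargc1a (PGC-1alpha), a coactivator of mitochondrial genes, did not pass (0.39, adjusted p = 0.133), but did with only the 10 arrays in the fit (adjusted p = 0.0169). Of 20 glycolysis and glycogen genes 4 were higher and 1 lower, with Fbp2 at 0.87 and the glucose transporter Slc2a4 (GLUT4) at 0.60.

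Of 35 genes of myostatin, TGF-beta and growth signalling 2 were higher and 12 lower in left legs (median -0.11). Igf1, a growth factor of muscle and macrophages, was 347, 220.3, 395, 274 and 229.6 in left legs, against 555, 567, 1078, 624.5 and 459 in right legs and 396 to 814 in sham legs (log2 difference -1.12, SE 0.23, adjusted p = 6.22e-05). Against sham the log2 difference was -1.18, adjusted p = 1.15e-05 for left legs and -0.053, adjusted p = 0.883 for right legs. The follistatin-related Fstl1 and the IGF-binding Igfbp4 differed by -1.55 and -1.35. Smad3, a transducer of TGF-beta and myostatin, was higher in left legs (log2 difference 0.82, SE 0.14, adjusted p = 3.65e-06).

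Of 31 proliferation genes 2 were higher and 9 lower in left legs (median -0.41), and the alternatives gave 0 to 3 higher. Bub1, 1 of the 2 higher genes (1.07), was under the 40th percentile on every left and every right array. Its other probe set differed by -0.19, and its direction by pair is not given. Cdk1 was 0.969, 0.824, 1.97, 6.87 and 1.90 in left legs and 24.5, 3.27, 20.9, 20.8 and 11.7 in right legs (log2 difference -1.57, SE 0.46, adjusted p = 0.00707), with all left signals under the 40th percentile of their arrays. Birc5 (survivin), for which the same holds, and the replication helicase subunit Mcm6 differed by -1.44 and -1.15, and Mki67 did not pass (-0.57, adjusted p = 0.287). The call of Mcm6 was lost with only the 10 arrays in the fit (adjusted p = 0.0516). Of 15 cartilage and bone genes 2 were higher, Col9a1 among them, and 5 lower. The cartilage genes Col2a1, Acan and Sox9 differed by -1.87, -1.78 and -1.27, with all left leg signals of Sox9 under the 40th percentile of their arrays. Acan reached 356 in right leg replicate 3 and no more than 38.2 in the other right legs. Without that array the adjusted p was 0.138 for Acan and 0.0587 for Col2a1, and 2 of the 15 were lower.

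Of 24 mechanical stress and heat shock genes 3 were higher and 9 lower in left legs (median -0.20). The inducible chaperone Hspa1b was 58.4 to 83.7 in left legs and 98.5 to 318 in right legs (log2 difference -1.52, SE 0.41, adjusted p = 0.00272). Of 24 antioxidant and metallothionein genes 4 were higher and 3 lower, beside 9.71% and 13.5% of all genes tested. The mitochondrial superoxide dismutase Sod2 was higher (0.45, adjusted p = 1.77e-06) and the metal-binding Mt2 lower (-1.40, adjusted p = 0.032). The call of Mt2 was lost without any one of left leg replicates 1, 4 and 5 and right leg replicate 3. The cell cycle inhibitor Cdkn1a (p21) differed by -0.75, adjusted p = 0.0428, and its call was lost in 13 of 21 alternatives. Of 18 circadian clock genes 3 were higher, among them the clock-controlled factors Tef and Hlf (0.38 and 0.45), and none without right leg replicate 3. The call of Tef was lost in 5 of 21 alternatives, the fixed animal block among them (adjusted p = 0.0642), and that of Hlf in 6 with 1 replicate left out. Of 8 polyamine genes 1 was higher, the spermine oxidase Smox (0.94, adjusted p = 0.0021), and 2 were lower. Of 12 adipocyte markers 2 were higher, including the lipid droplet protein Plin4 (0.81, adjusted p = 0.00015), and Adipoq did not pass (-0.37, adjusted p = 0.604). Of 16 endothelial markers 2 were higher. Limma called 0 of 10 Schwann cell and 0 of 3 erythroid markers, with 1 and 0 at an unadjusted p under 0.05.

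Other genes ranked highest by their difference towards left legs. Pm20d2, a peptidase of dipeptides, was 288, 252, 250.3, 224 and 298 in left legs, against 82.9, 107, 42.7, 62.6 and 58.0 in right legs and 101 to 199 in sham legs (log2 difference 1.89, SE 0.17, adjusted p = 6.58e-16). Left legs lay above every sham leg, and right legs, but for 1, below the sham range. Prima1, the membrane anchor of acetylcholinesterase, was 49.5, 67.5, 45.1, 34.6 and 42.6 in left legs and 13.2, 16.1, 15.8, 13.2 and 0.890 in right legs (log2 difference 1.86, SE 0.27, adjusted p = 4.23e-08). Right leg replicates 1, 4 and 5 were under the 40th percentile of their arrays, so this size rests in part on the added value. Ppp1r1a, an inhibitor of protein phosphatase 1, was 501 to 998 in left legs and 149.5 to 398 in right legs (log2 difference 1.65, SE 0.26, adjusted p = 2.52e-07). Cited4, a transcriptional coactivator, differed by 1.38, the syntrophin Sntb1 by 1.30 and the methyltransferase gene Mettl21e by 1.29.

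Each leg was also set against the 8 sham legs. Left legs differed from sham in 1604 genes upward and 1722 downward (10% and 10.7%), 20.8% of those tested. Right legs differed in 3304 upward and 2454 downward (20.6% and 15.3%), 35.9%. Both comparisons share the sham legs, and their counts are given side by side only. The sham legs came from a separate cohort of animals, were all right legs and had lower actin ratios than both legs of the tenotomy animals. Effects of cohort, of RNA integrity, of surgery and, for left legs, of side cannot be told apart in these counts. For the collagens, 1 of 20 was higher and 2 lower in left legs against sham, and 19 were higher and none lower in right legs. For oxidative phosphorylation, 2 of 44 were higher and 3 lower in left legs, and none was higher and 32 lower in right legs. For macrophage markers, none of 25 was higher and 8 were lower in left legs, and 14 were higher and none lower in right legs. For the clock genes, 10 of 18 were higher and 4 lower in left legs, and 9 were higher and 5 lower in right legs.

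The leg difference was compared over time in 1 model. The difference at day 14 minus that at day 2 passed the test for 847 genes in the positive and 459 in the negative direction (5.28% and 2.86%, together 8.15%). Among macrophage markers 22 of 25 passed in the positive direction. Mpeg1 had leg differences of -5.59, -2.92 and -2.11 at days 2, 7 and 14 (day 14 minus day 2: 3.48, SE 0.54, adjusted p = 1.95e-06). At day 2 its signal ran from 4.03 to 41.4 in left legs and from 935 to 1429 in right legs. Ctss had differences of -3.96, -2.06 and -1.34, Gpnmb of -4.54, -1.91 and -1.94 and Lgals3 of -4.20, -2.83 and -2.19 at these days. The largest change over time was that of Chil3, a chitinase-like protein of macrophages, with -4.39, -0.91 and 0.45 (day 14 minus day 2: 4.83, SE 0.98, adjusted p = 0.000285). At day 14 its signals were under the 40th percentile on all 10 arrays. The chemokine receptor Ccr1 had differences of -3.49, -0.95 and -0.092, Ms4a6d of -3.76, -1.92 and -0.62 and the neuropeptide galanin gene Gal of -2.38, 0.44 and 0.69. Of the proliferation genes 20 of 31 and of the cathepsin and lysosome genes 19 of 27 also passed in the positive direction. Myog had -1.95, -0.79 and -0.91 (day 14 minus day 2: 1.04, SE 0.27, adjusted p = 0.00707).

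**Figure D4:**
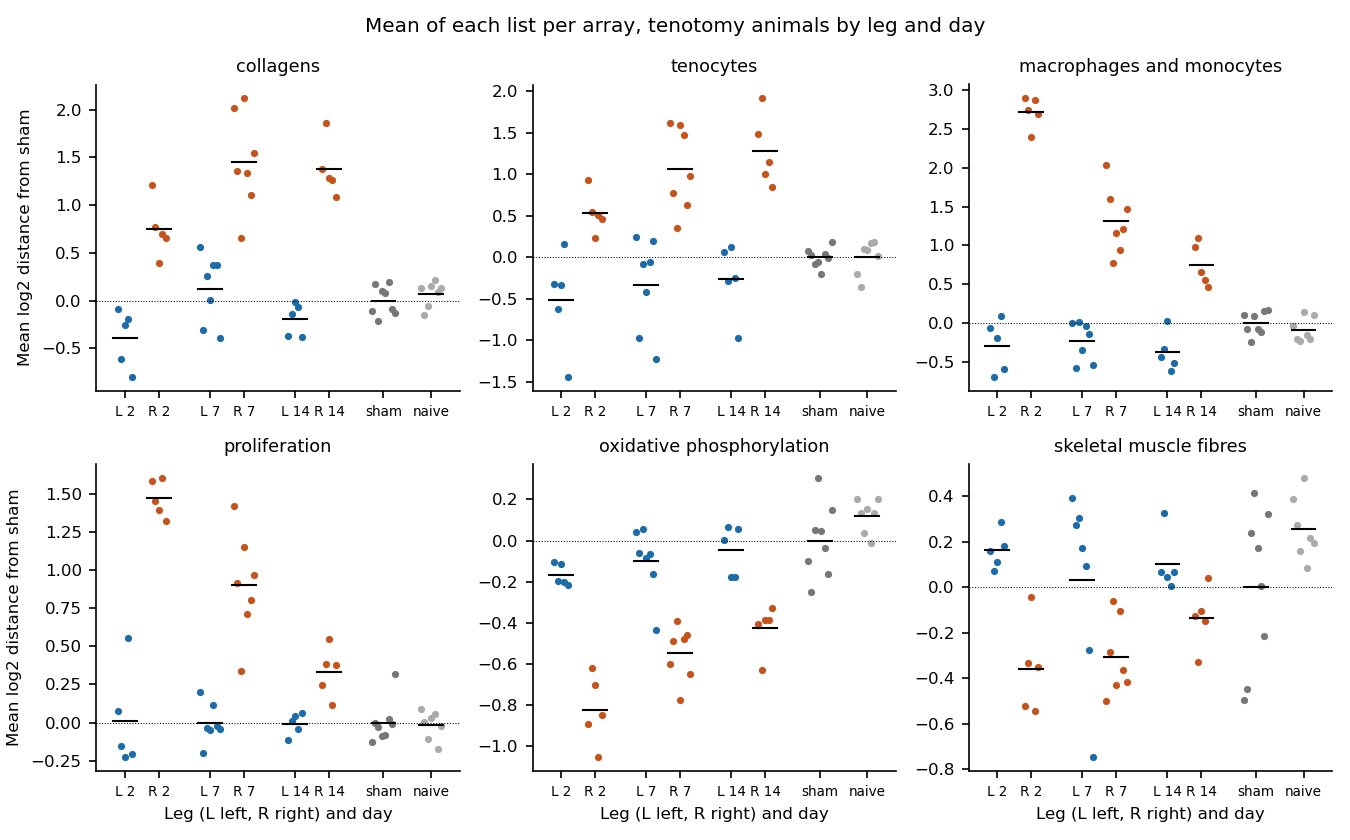
Points are arrays and bars are group means of the log2 distance of each list from the mean of the 8 sham legs, for left (L) and right (R) legs at days 2, 7 and 14, then sham at day 14 and naive. At day 14 the collagen mean was -0.193 in left and 1.37 in right legs, and the macrophage mean was -0.374 in left and 0.746 in right legs, where it had been 2.72 in right legs at day 2.

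In other genes the leg difference was more negative at day 14 than at day 2. Mmp13 had leg differences of -1.91, -7.80 and -6.27 at days 2, 7 and 14 (day 14 minus day 2: -4.36, SE 0.84, adjusted p = 0.000129). Its median in right legs was 35.1 at day 2 and 1192 at day 7. Sln had differences of -1.17, -3.90 and -4.43 (day 14 minus day 2: -3.26, SE 0.55, adjusted p = 8.59e-06), and its right leg median was 129 at day 2 and 709 at day 7. Mybph, a myosin-binding protein, had 0.80, -0.53 and -2.33, and the water channel gene Aqp5 had 0.65, -1.59 and -1.78. The protease-like Prss35 had -0.052, -1.47 and -2.74. Ctsk had -1.48, -3.02 and -3.06 and Lum -1.02, -2.26 and -2.31. Myl2 had 3.01, 2.19 and 1.36 (day 14 minus day 2: -1.65, SE 0.37, adjusted p = 0.000959), and Chrnb1 had 0.019, -0.25 and -0.60 (day 14 minus day 2: -0.62, SE 0.20, adjusted p = 0.0419), a call lost in 7 of 21 alternatives. Tnmd had -1.20, -1.78 and -2.54, and the change missed the test (adjusted p = 0.0636) but passed it in 6 of 21 alternatives (adjusted p from 0.0203 to 0.046). All left leg signals of Prss35 and Aqp5 at day 14 were under the 40th percentile of their arrays.

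Between day 7 and day 14 few changes passed: 5 genes in the positive and 7 in the negative direction (0.0312% and 0.0437%, together 0.0749%), with 1291 genes at an unadjusted p under 0.05. Matn4 had leg differences of -0.86, -1.05 and -3.001 at days 2, 7 and 14 (day 14 minus day 7: -1.96, SE 0.42, adjusted p = 0.0186). Col22a1 and the heat shock protein gene Hspa1l had 1.53, 1.29 and -0.29 and 1.20, 1.35 and 0.17. The secreted protein gene Crispld1 had -0.51, 0.29 and -1.35 and the lipid transporter gene Abca8b -0.15, 0.36 and -0.41. In the positive direction, the metalloproteinases Mmp10 and Mmp9 had -0.67, -2.24 and 0.10 and -0.54, -1.53 and 0.59 (day 14 minus day 7: 2.34, SE 0.44, adjusted p = 0.00434, and 2.12, SE 0.42, adjusted p = 0.00812). Mmp10 signals in right legs at day 7 ran from 27.2 to 69.1. The adhesion molecule gene Chl1 had -0.91, -2.44 and -0.72, C630043F03Rik 0.042, -0.16 and 0.76 and the mitochondrial ribosomal protein gene Mrpl40 0.055, -0.055 and 0.48. With only the arrays compared in the fit, limma called 0 genes in the positive direction and 2, Col22a1 and Hspa1l, in the negative one, with 1106 genes at an unadjusted p under 0.05. Of the genes named here, the calls of all but Col22a1 and Hspa1l were lost in 2 to 13 of 21 alternatives. Mmp13 and Sln did not pass between these days.

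**Figure D5:**
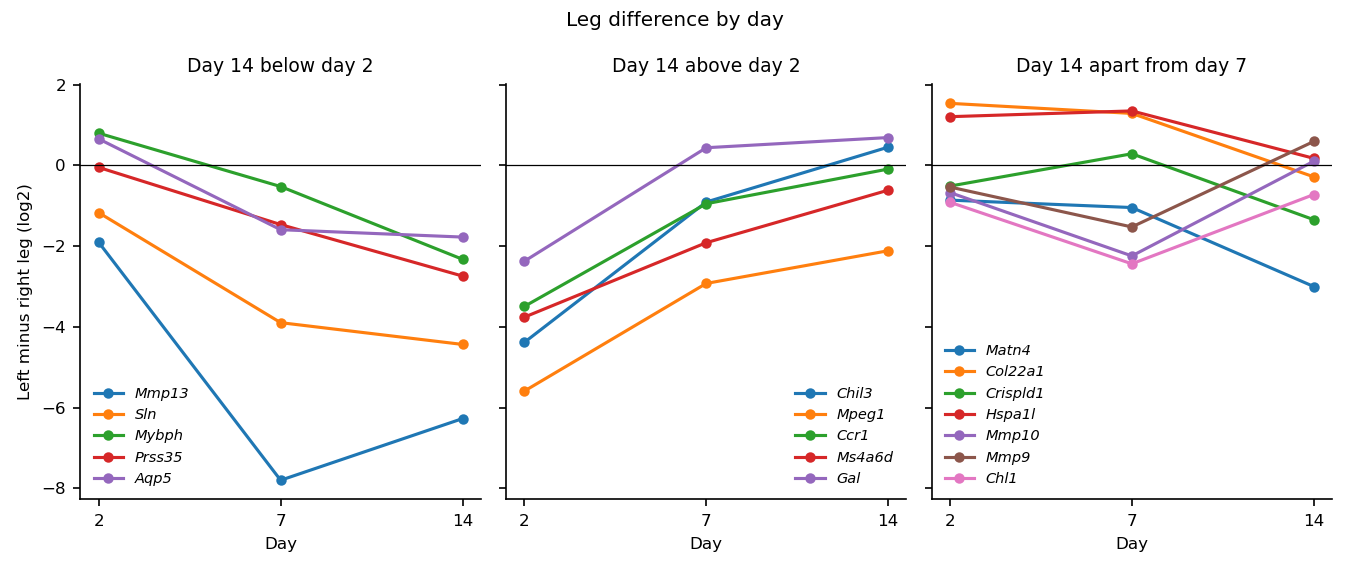
Lines join the log2 difference of left minus right legs at days 2, 7 and 14 for single genes, grouped by the test of day 14 against day 2 (left and middle panels) or against day 7 (right panel). Mmp13 moves to -7.80 at day 7 and -6.27 at day 14, whereas Chil3 moves up to 0.45 at day 14.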

How the data were processed

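One Affymetrix array was run per gastrocnemius muscle. The authors deposited a matrix of linear intensity values, and the submitters' processing notes name MAS5 and GCOS as the programs behind it. Versions, scaling target and array processing batches are not given in the sources used here. The mean of each array, trimmed by 2% at each end, lay between 99.95 and 99.97. Depth has no meaning for arrays, and their number limits the precision.

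Of 45101 probe sets, 34958 had a single gene in the platform annotation, 932 had several and 9211 had none. Symbols were updated by gene ID for 34754 of these probe sets, and 204 kept the annotated symbol. Each of 18193 genes was represented by its probe set of highest mean log2 signal, and 16028 genes with a signal above the array's 40th percentile on at least 5 arrays were tested. The pseudocount of 3.98 is the 20th percentile of all signals. Groups, leg sides and animals came from the labels. A model with 16 group means over all 111 arrays was fitted with limma 3.58.1 in R 4.3.3, with animal as a random block (consensus correlation 0.0963), an intensity trend and Benjamini-Hochberg adjustment over all genes tested at 0.05. The pairing comes from the animal numbers in the labels, and the deviations of both legs of an animal from their group means correlated at 0.0186 to 0.0896 over genes in the 4 pairs of day 14. Animals, not arrays, are the separate units, and no 2 arrays held identical values.

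Members and gene lists were chosen with earlier results of these data known. Named genes were a fixed list, the 15 with the largest call in each direction among those with 1 sign in 4 of 4 pairs, up to 4 per list and direction, and 5 per direction for each comparison of days; the text gives a selection of them. Alternatives were other pseudocounts (1 and 16), filters, probe set means, quantile normalization, fits of only the arrays compared, array weights, no intensity trend, no block, a fixed block, and each replicate left out. The limma fit of the leg difference at day 14 was tested on simulated data, and the other steps were not. Figures were drawn with matplotlib 3.10.9 in Python 3.11.15.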

Additional observations from a re-analysis of the deposited data

Results flagged for a closer look

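In 26 of 254 groups of 5 log2 values (10.2%) 1 array stood apart, by a gap to its nearest neighbour above 0.71 of the range. The rule was applied on the log2 scale, and the values printed here are linear signals. Chance alone flags about 1 in 20 groups. Right leg replicate 3 was highest for Col3a1 (9303, others 7446 to 7838), Col5a2 (2948, others up to 1526), Col11a1 (908.3, others up to 335.2), Tnc (910.8, others up to 344.2), Lox (1122, others up to 421.8) and Serpina3n (164.8, others up to 54.52). The same array was lowest for Myh1 (8891), Klhl41 (3399), Jph2 (1759, others from 2220) and Sod2 (1321, others from 1496). Left leg replicate 5 was lowest for Col1a1 (837, others from 2684), Tnc (42.23), Cdh11 (4.543, others from 17.02), Pi16 (83.54) and C1s1 (123.9).

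Right leg replicate 5 was lowest for Fos (111.5) and Prima1 (0.8899) and highest for Psmd4 (1624) and Smox (3005). Left leg replicate 4 was highest for Cdk1 (6.87), Myh4 (16500) and Gadd45a (179.7). Left leg replicate 2 was lowest for Col3a1 (1721) and highest for Mettl21e (75.55), left leg replicate 1 was highest for Mmp13 (4.401), and right leg replicate 2 was highest for Ppp1r1a (398).

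The leg difference itself differed between days by the interaction test in limma. Day 14 minus day 2 was positive for Chil3 (4.83), Mpeg1 (3.48), Ccr1 (3.4), Ms4a6d (3.14), Gal (3.06), Ctss (2.62), Gpnmb (2.6), Lgals3 (2.02) and Myog (1.04). It was negative for Mmp13 (-4.36), Sln (-3.26), Mybph (-3.12), Prss35 (-2.69), Aqp5 (-2.43), Myl2 (-1.65), Ctsk (-1.59), Lum (-1.29) and Chrnb1 (-0.62, lost in 7 of 21 alternatives). Day 14 minus day 7 was positive for Mmp10 (2.34), Mmp9 (2.12), Chl1 (1.71), C630043F03Rik (0.92) and Mrpl40 (0.54), and negative for Matn4 (-1.96), Crispld1 (-1.63), Col22a1 (-1.57), Hspa1l (-1.17) and Abca8b (-0.77).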

How the results depend on the processing

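Over the alternatives other than leaving out a replicate, the count of genes higher in left legs ran from 1221 to 1796 and that of genes lower from 1710 to 2239. Quantile normalization gave 1796 higher and 1839 lower (49.4% higher, against 41.9% as reported). Leaving out 1 replicate gave 1124 to 1568 and 1717 to 2067. Without the replicate block the counts were 1410 and 2000, and with the animal as a fixed block 1221 and 1710. Alternatives for single genes were computed for genes that the text reports, not for every named gene. Of 2223 values for the 106 of them called between the legs, 2158 kept direction and call, 64 lost the call and 1 reversed.

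Day 14 minus day 7 was the least stable comparison. Its positive calls, 5 as reported, numbered 2 with probe set means, 9 after quantile normalization, 0 with only the arrays compared, 3 without the replicate block, 1 with the fixed block and 2 to 9 with 1 replicate left out. Its negative calls, 7 as reported, numbered 2 with only the arrays compared and 4 to 10 with 1 replicate left out. For day 14 minus day 2, the 459 negative calls became 294 with only the arrays compared. The causes were not tested.

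Signs turned mainly for genes that had not passed. With probe set means the difference was 0.143 for Ctsl, 0.051 for Hdac4, 0.238 for Psmd4 and -0.019 for Ighm, the 1 called gene that reversed. After quantile normalization it was -0.068 for Myh1 and -0.042 for Myh4. With the fixed block it was 0.001 for Ctsl and -0.016 for Myh7. With 1 replicate left out, Ctsl ran from -0.174 to 0.038, Myh7 from -0.074 to 0.525, Hdac4 from -0.118 to 0.018, Psmd4 from -0.104 to 0.034 and Adipoq from -0.713 to 0.059.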
